A study of Drosophila melanogaster with 14 samples.

Results

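These are the 901 regions of the Drosophila melanogaster genome that held a peak of an insulator protein at 3 h and at 48 h of treatment with 20-hydroxyecdysone and no peak of any of 4 such proteins in untreated cells. Peaks came from chromatin immunoprecipitation and sequencing (ChIP-seq) of CP190, Su(Hw), dCTCF and BEAF-32 in Kc167, a cell line of embryonic origin grown in serum-free medium. Untreated cells (0 h) were set beside cells given 5e-07 M of the hormone for 3 h or for 48 h, with 1 library for each protein and time, all made with antibodies raised in the submitters' laboratory (for BEAF-32, against BEAF32B). The 2 input libraries of untreated cells were not analysed here. Peaks of the 8 treated lists on the main chromosome arms (X, 2L, 2R, 3L, 3R and 4) were pooled, and peaks that overlapped by at least 1 bp were merged into regions. A region was kept where no 0 h peak of any protein overlapped it and where it held at least 1 peak of each treated time. Of 13475 regions in the treated lists, 901 met this rule (6.69%, 95% Wilson interval 6.28 to 7.12).

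The other regions set the scale. A 0 h peak lay at 11125 of them, 602 (4.47%) were new at 3 h only and 847 (6.29%) were new at 48 h only. Of the 2350 regions without a 0 h peak, those new at both times made up 38.3%. The regions were chosen by the presence and absence of peaks in these lists, all classes are defined against the same 4 lists of 0 h, and no group had a second library, so every count here is a description without a test. Intervals cover counting error only.

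Insulator proteins mark the borders of chromatin domains and shape contacts between enhancers and promoters. In flies, Su(Hw), dCTCF and BEAF-32 bind DNA, and CP190 joins them as a common cofactor and also occurs at active promoters. 20-hydroxyecdysone is the steroid that times moulting and metamorphosis, and acts through a nuclear receptor on a cascade of early and late genes. Kc167 cells stop dividing and change shape when they receive it.

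BEAF-32, a protein found mostly near the starts of active genes, formed most of the new regions. It had a peak at 640 of the 901 (71.0%, 68.0 to 73.9) at either time and was the only protein at 464 (51.5%, 48.2 to 54.7). Su(Hw), the zinc-finger protein of the gypsy insulator, was present at 301 (33.4%) and alone at 197 (21.9%, 19.3 to 24.7). CP190 was present at 134 (14.9%) and alone at 39 (4.33%). dCTCF, the fly counterpart of vertebrate CTCF, was present at 50 (5.55%) and alone at 5 (0.555%, 0.237 to 1.29).

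The same order did not hold in the neighbouring classes. Su(Hw) was alone at 54.0% of the regions new at 3 h only (50 to 57.9) and at 60.7% of those new at 48 h only (57.4 to 63.9). BEAF-32 was alone at 26.2% (22.9 to 29.9) and 21.0% (18.4 to 23.9) of them. Among regions with a 0 h peak, BEAF-32 was alone at 6.99%. Against the whole set of treated regions that held a protein at both times, the new regions were 598 of 5223 (11.4%) for BEAF-32, 248 of 7025 (3.53%) for Su(Hw), 67 of 5221 (1.28%) for CP190 and 12 of 2902 (0.414%) for dCTCF.

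The length of the lists moves with this order. At 0, 3 and 48 h the BEAF-32 lists held 4187, 5882 and 5896 arm peaks, and 1818, 782 and 486 peaks on the unplaced sequences U and Uextra. The Su(Hw) lists held 7951, 8492 and 8329 arm peaks, the CP190 lists 5720, 6254 and 5667, and the dCTCF lists 4003, 4085 and 3333. With the lists of each protein shortened by score to its shortest list, 363 regions met the rule, of which 102 held BEAF-32 alone and 156 held Su(Hw) alone, so the order of these proteins turned. Without the BEAF-32 lists of all 3 times, 446 regions met it. The part of list length in the count was not tested.

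**Figure D1:**
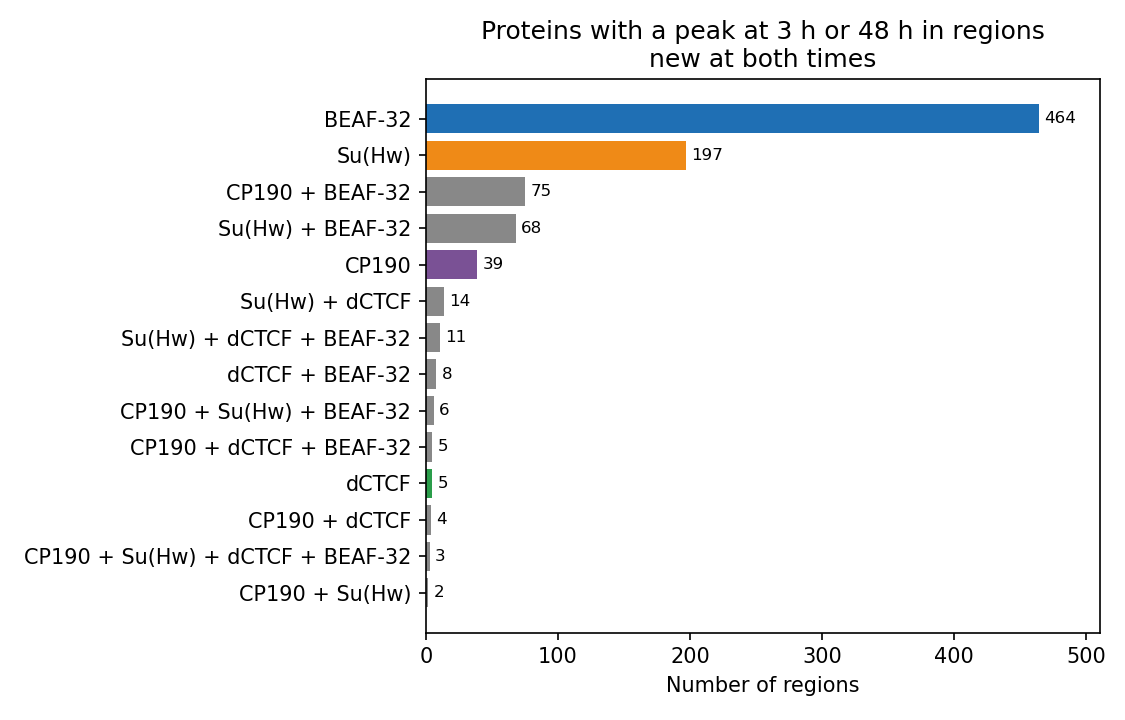
Number of regions new at both treated times (x axis) for each set of proteins with a peak there at 3 h or 48 h (y axis). BEAF-32 alone accounts for 464 of 901 regions and Su(Hw) alone for 197, and 3 regions hold all 4 proteins.

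A protein can be new in its own lists where another protein already had a 0 h peak. In its own lists BEAF-32 had 1679 arm regions with a peak at 3 h and 48 h but none at 0 h. Of these, 616 (36.7%, 34.4 to 39.0) lay where no protein had a 0 h peak, and the other 1063 lay on a 0 h peak of another protein, 713 of them on CP190. For Su(Hw), 258 of 470 such regions (54.9%, 50.4 to 59.3) lay where no protein had a 0 h peak. For CP190 the count was 68 of 309 (22.0%, 17.7 to 27.0), and for dCTCF 13 of 108 (12%, 7.17 to 19.5). Su(Hw) thus had the highest share on sites without a listed 0 h peak, and dCTCF and CP190 the lowest shares, with intervals that overlap for the last pair. These shares are not on equal terms. Only 0 h peaks of the other proteins can exclude a region here, and Su(Hw) itself had the longest 0 h list, with 7951 arm peaks. Broad peaks, as those of CP190, also meet others more easily.

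Most new regions kept their makeup. The same protein was present at both times in 877 of 901 (97.3%, 96.1 to 98.2), and the whole set of proteins was the same in 742 (82.4%). Both counts include the 705 regions that held 1 protein over both times, whose protein is the same at both times by definition. Peaks of a region overlap by the way regions were merged, so overlap of the 3 h and 48 h peaks is no finding. Where a protein was present at both times, the centres of its best peaks lay a median of 23.8 bp apart for BEAF-32, 24.8 bp for Su(Hw), 53.0 bp for CP190 and 18.5 bp for dCTCF. The median width was 561 bp at 3 h and 580 bp at 48 h for BEAF-32, and 491.5 and 530.5 bp for Su(Hw). CP190 peaks were broader, at 926 and 872 bp.

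New regions with more than 1 protein numbered 196 (21.8%, 19.2 to 24.6), far below the 61.8% of regions with a 0 h peak and above the 4.15% and 6.61% of regions new at 3 h only and at 48 h only. A region that needs 1 peak of each time holds at least 2 peaks, and regions with a 0 h peak held 3.99 peaks on average against 2.30, so these shares are not on equal terms. The commonest pairs were CP190 with BEAF-32 (75 regions) and Su(Hw) with BEAF-32 (68). Su(Hw) with dCTCF formed 14, and CP190 with Su(Hw), a pair of the gypsy insulator, formed 2. Merging on overlap sets how far apart proteins of a region can lie. Within that limit, at 3 h the peak centres of CP190 and BEAF-32 were a median of 60.5 bp apart (73 regions), those of Su(Hw) and BEAF-32 51.8 bp (52 regions), those of CP190 and dCTCF 116 bp (9 regions) and those of CP190 and Su(Hw) 177 bp (6 regions).

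Of these 196 mixed regions, 37 (18.9%, 14.0 to 24.9) had the same set of proteins at both times. The proteins of a region are those of either time, so every region whose set changed counts as mixed. This share therefore cannot show whether mixed regions changed more than regions of 1 protein. CP190 and dCTCF were listed less often at 48 h than at 3 h. Of the 598 new regions that held BEAF-32 at both times, 71 (11.9%, 9.52 to 14.7) also held CP190 at 3 h and 29 (4.85%, 3.40 to 6.88) at 48 h, with 21 holding it at both. The pattern of CP190 with BEAF-32 at 3 h and BEAF-32 alone at 48 h described 41 regions, and the reverse pattern 7. dCTCF was present at 18 of these 598 regions at 3 h, at 4 at 48 h and at both times in 1. Su(Hw) was present at 43 and then 36, with 23 at both times. Regions with a 0 h peak and BEAF-32 at both times moved the same way, from 72.3% to 64.2% with CP190 and from 45.3% to 37.9% with dCTCF. In proportion to the 3 h share, both falls were smaller there than in the new regions.

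The share of CP190 peaks still listed was close to that at other sites where CP190 was new. CP190 was still listed at 48 h in 21 of 71 of the new regions (29.6%, 20.2 to 41.0). In regions that held BEAF-32 at both treated times and some 0 h peak, but none of CP190, it was still listed in 91 of 275 (33.1%, 27.8 to 38.9). For 3 h CP190 peaks with a score under 200 the shares were 22.9% (13.3 to 36.5) in the new regions and 21.7% (16.2 to 28.4) in the others. For Su(Hw) the matching shares over peaks of all scores were 53.5% (38.9 to 67.5) and 50% (44.2 to 55.8), and for dCTCF 5.56% (0.988 to 25.8) and 19.2% (15.2 to 23.9). The intervals overlapped for all 3 proteins, but overlap of intervals is not a test, and a difference was not tested. The dCTCF share in the new regions rests on 1 of 18 regions. In all regions with a 0 h peak that held BEAF-32 at both times, CP190 included, the share was 87.3%.

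The 24 regions with different proteins at 3 and 48 h were mostly Su(Hw) followed by BEAF-32 (9) or dCTCF followed by Su(Hw) (5). In 4 of the 5 with the highest ranks every peak lay in the lower 50% of its list. At 2R:4749844-4750458, dCTCF (score 282.69) and BEAF-32 (161.28) were listed at 3 h and Su(Hw) (215.6) at 48 h, 366 bp from a 0 h Su(Hw) peak. At 2R:5322966-5323607, Su(Hw) (181.42) was followed by BEAF-32 (337.99). At 3L:15505808-15506715, Su(Hw) (187.97) was followed by BEAF-32 (151.2). The exception was the 48 h CP190 peak at 3R:12582138-12584608 (score 758.56, percentile 57.4), which followed a dCTCF peak with a score of 119.53 (percentile 8.60). At 3R:6688477-6689274, Su(Hw) (106.78) and BEAF-32 (155.6) were followed by CP190 (142.6). The lowest score in any list was 100.

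The peaks of the new regions ranked low in their lists. What the authors' deposited score measures is not stated in the sources used here, so each peak was given its percentile in its own deposited list, with scores of 3100 or more tied. The 619 BEAF-32 peaks of 3 h had a median percentile of 23.3 (quartiles 13.3 to 33.7) and the 633 of 48 h had 23.7 (13.5 to 33.8). Su(Hw) stood at 13.6 (6.80 to 21.7) and 17.6 (7.89 to 31.2), CP190 at 13.5 and 15.1, and dCTCF at 12.9 and 14.5. In regions with a 0 h peak the medians were 79.6 and 78.9 for BEAF-32, 53.7 and 54.9 for Su(Hw), 56.2 and 55.8 for CP190, and 50.3 and 49.7 for dCTCF. The BEAF-32 values are those of the tied scores, the highest percentiles these lists can give. A strong site is less easily missing from a 0 h list, so this contrast is not independent of the rule. Of the BEAF-32 peaks in new regions, 27 (4.36%) at 3 h and 18 (2.84%) at 48 h lay in the upper 50% of their list.

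BEAF-32 peaks that were new at both times ranked above those new at 1 time. The classes are set by listing at 1 or both treated times. A peak near the lowest score can more easily be missing from the other list, so this order is not independent of the rule. Regions new at 3 h only had a median BEAF-32 percentile of 7.81 (quartiles 4.32 to 14.3), and those new at 48 h only had 9.49 (4.32 to 17.0), so the upper quartiles of these classes lay near the lower quartile of the regions new at both. The share of BEAF-32 peaks with a score under 200 was 27.3% at 3 h in the regions new at both times and 74.4% in those new at 3 h only. In the 3 h lists CP190 (13.5 against 7.99) and Su(Hw) (13.6 against 9.20) had the same order as BEAF-32. For Su(Hw) at 48 h the classes lay closer, with medians of 17.6 and 16.1. For CP190 at 48 h the order turned: 15.1 in regions new at both times and 24.9 in those new at 48 h only.

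**Figure D2:**
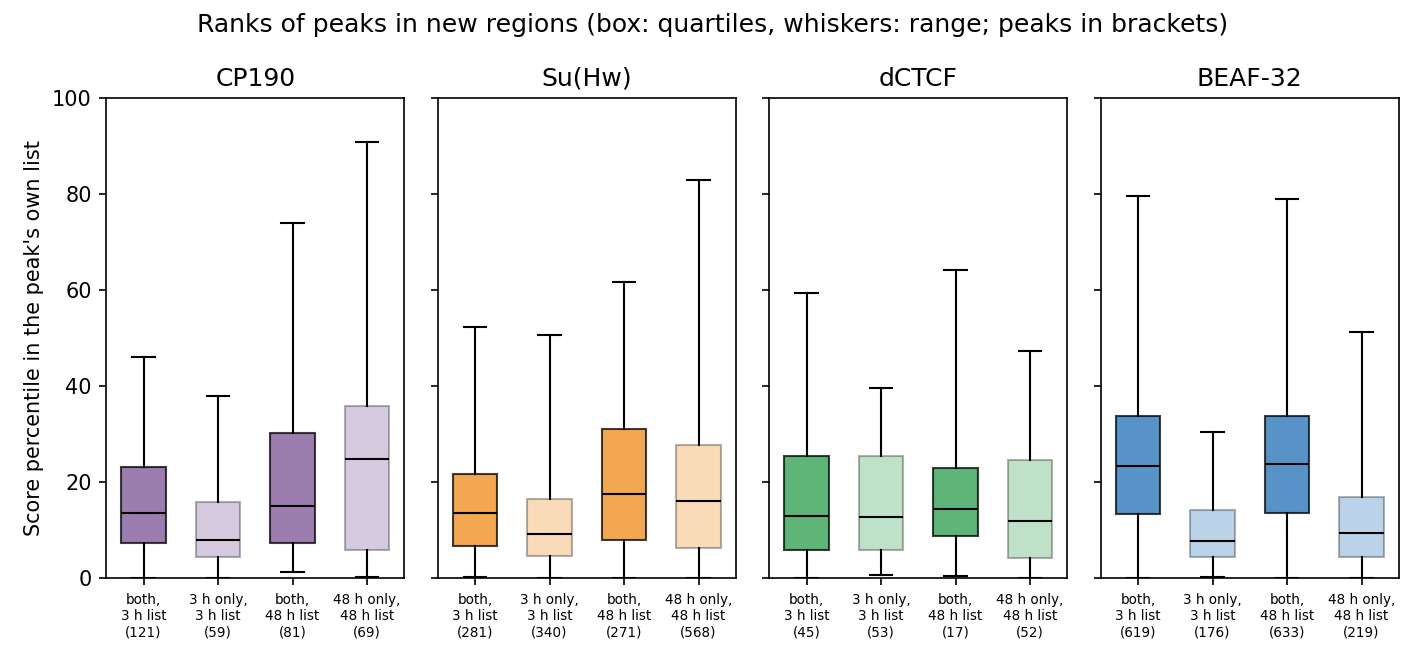
Score percentile of each peak within its own list (y axis) for regions new at both treated times and regions new at 1 time, by protein and list, with boxes for quartiles, whiskers for the range and the number of peaks in brackets. For BEAF-32 the median is 23.3 against 7.81 in the 3 h list and 23.7 against 9.49 in the 48 h list, while the dCTCF medians lie close, at 12.9 and 12.8 in the 3 h list. The classes are set by listing at 1 or both treated times, so ranks are not independent of them.

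The rank of a BEAF-32 region at 3 h went with its rank at 48 h, over 598 regions with Spearman's rho 0.676, and 293 of them ranked higher at 48 h and 305 lower. For Su(Hw) rho was 0.159 over 248 regions and for CP190 0.133 over 67, although both had rho above 0.9 (0.934 and 0.907) in regions with a 0 h peak. The ranges differ, since new regions occupy the lower part of each list. These correlations are across regions of the same libraries, and regions are not replicates. Su(Hw) ranked higher at 48 h in 140 of 248 regions (56.5%), with a median shift of 2.61 percentile points and quartiles of -7.28 and 14.8.

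**Figure D3:**
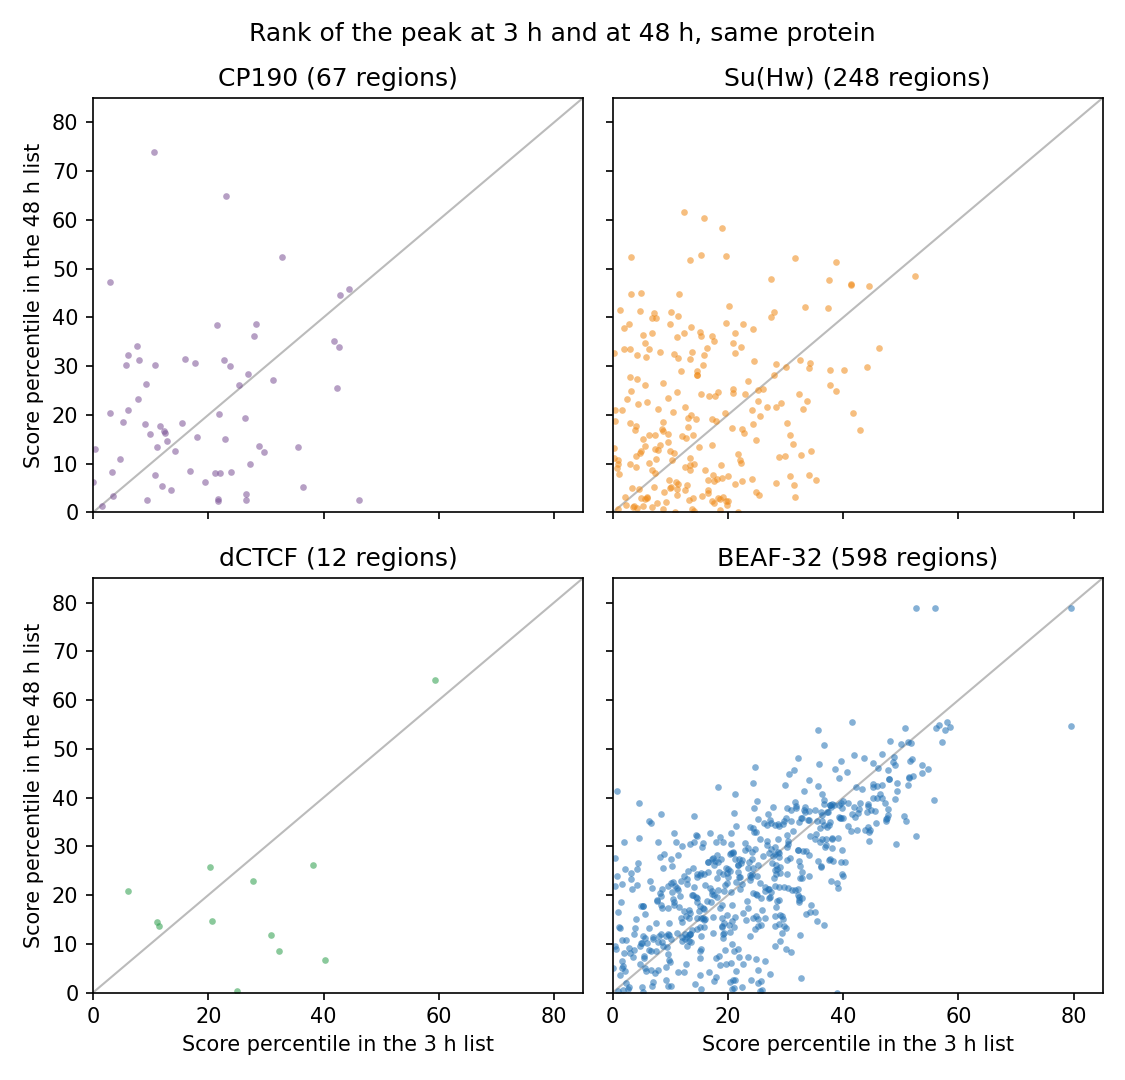
Score percentile in the 3 h list (x axis) against that in the 48 h list (y axis) for each new region with the same protein at both times, 1 panel per protein, with the line of equal rank. The 598 BEAF-32 points follow the line, whereas the 248 Su(Hw) points are spread over the lower left without a clear slope.

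Single regions show what lies behind these ranks. Among regions with BEAF-32 alone, 4:87605-88263 was listed at a score of 3100 at both 3 and 48 h, the ceiling that many strong peaks share, and lay 451 bp from a 0 h CP190 peak that was also at the ceiling. At X:3616488-3617410 BEAF-32 had a score of 2482.1 at 3 h and 3100 at 48 h. At 2L:10306504-10307197 the scores were 2846.54 and 2566.71. All of these ranked in the upper 50% of both lists, which was true of 14 of the 598 regions with BEAF-32 at both times. The next were 2L:5519615-5520476, with 2595.08 and 2463.1, and X:4541581-4542233, with 2958.63 and 2398.59. These last 2 had a 0 h BEAF-32 peak at the ceiling as their nearest neighbour, at 3109 and 1080 bp. The nearest 0 h peaks of X:3616488-3617410 and 2L:10306504-10307197 had scores of 192.02 (Su(Hw)) and 226.68 (CP190).

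The leading Su(Hw) regions reached only the middle of the lists. X:1845066-1846346 had scores of 915.48 at 3 h and 735.95 at 48 h and lay 236 bp from a 0 h CP190 peak at the ceiling. X:1838939-1839728, 5337 bp away, had 471.43 and 658.57. Both belong to the 5 highest-ranking regions with Su(Hw) alone. The others, on 2R, were 2R:9888022-9888757 (560.59 and 645.1), 2R:8704874-8705484 (410.85 and 896.51) and 2R:11500812-11501990 (392.96 and 701.54). In 4 of these 5 regions Su(Hw) ranked higher at 48 h than at 3 h. The highest 48 h score of Su(Hw) in a new region, 2199.44 at 2L:3754619-3755340, followed a 3 h score of 149.78, a region singled out after its values were seen.

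CP190 alone formed longer regions, with a median of 1058 bp against 603 bp for BEAF-32 alone and 551 bp for Su(Hw) alone. 2L:2568828-2570645 had scores of 521.86 and 461.73, and 2L:7981108-7982954 had 488.7 and 439.72. X:10423229-10425307, 13921 bp from any 0 h peak, had 469.62 and 307.78. The last of these ranked lower at 48 h (percentiles 41.8 and 35.2), and the other two ranked slightly higher. 3L:17552013-17553070 had 483.99 and 295.68, and 3R:26203571-26204708 had 281.56 and 349.92. At 3R:15595532-15597279, singled out after its values were seen, the CP190 score was 150.19 at 3 h and 1893.32 at 48 h.

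The 5 regions with dCTCF alone lay between the percentiles 11.4 and 40.2 at 3 h and between 6.74 and 22.9 at 48 h. 2L:20583207-20583946 had scores of 190.28 and 221.0, and 3R:12672851-12673393 had 159.85 and 161.93. 2L:11713560-11714626 had 128.04 and 155.95. The last of these was the only one of the 5 to rank higher at 48 h than at 3 h (percentiles 13.6 and 11.4). 2L:19190013-19190584 went from 214.32 to 130.81 and 3R:13450148-13450754 from 280.03 to 124.23. The dCTCF site of highest rank was X:17425798-17426297, with dCTCF at 698.2 and 2103.33 (percentiles 59.3 and 64.1) and a CP190 peak (109.85, percentile 2.62) at 48 h, 24630 bp from any 0 h peak.

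All 4 proteins met in 3 regions, and in each of them only BEAF-32 was listed at 48 h. At 2R:18798787-18799898 the 3 h scores were 780.94 for BEAF-32, 229.1 for CP190, 196.77 for dCTCF and 123.47 for Su(Hw), and BEAF-32 had 516.11 at 48 h. At 3L:16080193-16081088 BEAF-32 had 496.6 and then 453.19, beside 3 h scores of 176.89 for Su(Hw), 133.96 for CP190 and 105.75 for dCTCF. At 3L:489602-490573 BEAF-32 had 223.15 and then 235.62, and the other proteins lay between 139.24 and 163.5 at 3 h. BEAF-32 had the highest percentile in each at 3 h, and the peaks not listed at 48 h lay between the percentiles 2.74 and 29.1.

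Among the regions of 2 or 3 proteins the dCTCF site X:17425798-17426297 ranked highest, and the next 4 rested on BEAF-32. At 2L:12704069-12705061 it had scores of 3100 and 2438.82, with low-ranking Su(Hw) peaks at both times (109.72 and 140.05) and CP190 at 3 h (129.89). At 2R:18104-18838 it had 1713.24 and 2003.86, with CP190 at 3 h only (164.01). At 2L:4981031-4981883 it had 1779.85 and 1968.15, with CP190 at both times (368.34 and 156.05). CP190 also stayed at 2L:8040779-8041561 (188.04 and 133.29), beside BEAF-32 scores of 1469.11 and 1611.89. In both of these CP190 ranked lower at 48 h, falling from percentile 35.5 to 13.5 and from 16.9 to 8.59, while BEAF-32 moved little, from 51.7 to 51.1 and from 48.8 to 48.3.

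The widest new regions, singled out after their widths were seen, lay side by side on X. X:13940715-13945481 spanned 4767 bp and X:13949426-13955518 spanned 6093 bp, where the median new region spanned 621 bp. Both held CP190 at 3 h and CP190 with BEAF-32 at 48 h. CP190 had scores of 163.66 and 161.82 in the former and 562.53 and 109.41 in the latter, and BEAF-32 had 292.78 and 242.43 at 48 h. The nearest 0 h peak, of Su(Hw), was 8188 bp from the former.

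The new regions were spread over all arms. They numbered 177 on X, 175 on 2L, 177 on 2R, 158 on 3L, 199 on 3R and 15 on chromosome 4. As a share of the treated regions of each arm this was 6.68% on X (5.79 to 7.69), 7.40% on 2L, 7.01% on 2R, 5.89% on 3L (5.06 to 6.85) and 6.33% on 3R, with intervals that overlapped among these 5. X held 19.6% of the new regions (17.2 to 22.4) and 19.8% of those with a 0 h peak.

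Chromosome 4, the small and largely heterochromatic arm, had the highest share, 15 of 109 (13.8%, 8.52 to 21.5). Of the 15, 14 held BEAF-32 alone and 1, at 4:1126755-1127678, held CP190 alone. New BEAF-32 regions were 14 of the 75 regions of chromosome 4 with BEAF-32 at both times (18.7%, 11.5 to 28.9), beside 11.3% (10.5 to 12.2) on the other arms. These intervals overlapped. For 12 of the 14 the nearest 0 h peak was also one of BEAF-32. BEAF-32 was also the commonest protein at the regions of chromosome 4 with a 0 h peak. Of these, 61 held BEAF-32 at both treated times, 24 CP190, 23 dCTCF and 16 Su(Hw). Their median scores were 555.355 at 3 h and 404.155 at 48 h, at the percentiles 31.8 and 27.9.

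**Figure D4:**
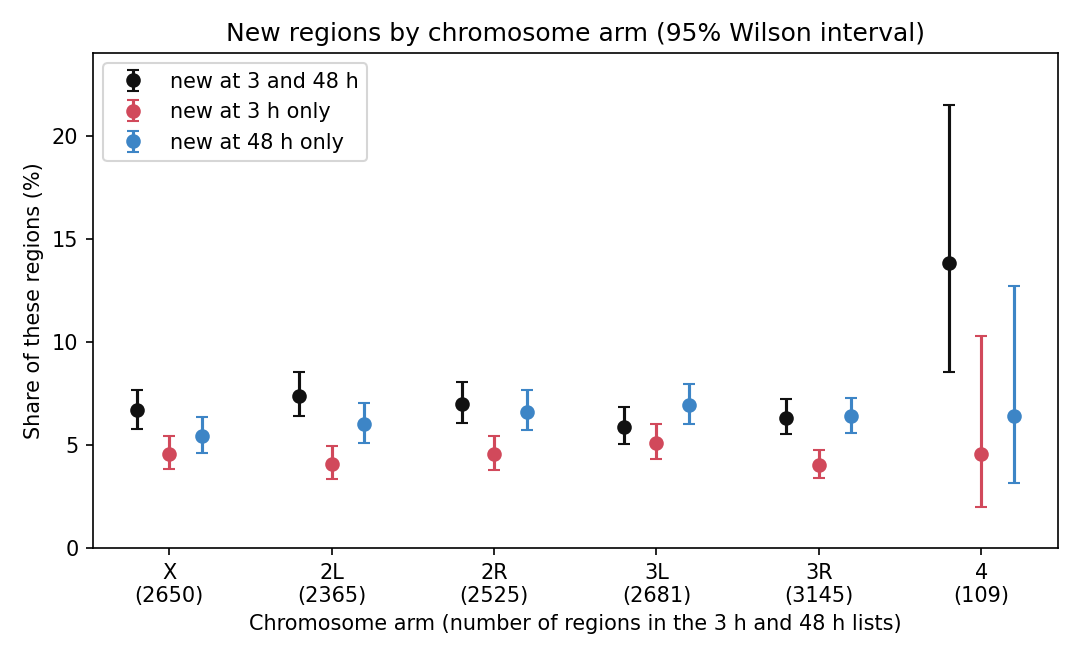
Share of the regions of the 3 h and 48 h lists that were new at both times, at 3 h only or at 48 h only (y axis, percent, with 95% Wilson intervals) on each arm (x axis, with the number of regions). Chromosome 4 has 13.8% new at both times on 109 regions, and the other arms lie between 5.89% and 7.40%.

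Most new regions lay a few kilobases from a site that was bound before treatment. The median gap to the nearest 0 h peak was 2021 bp (quartiles 862 to 4565). Of the 901, 263 (29.2%, 26.3 to 32.2) lay within 1 kb and 85 (9.43%, 7.69 to 11.5) lay more than 10 kb away. Regions new at 3 h only were within 1 kb in 37.0% of cases (33.3 to 41.0), and regions new at 48 h only in 31.5% (28.5 to 34.7). These classes differ in makeup, and the order did not hold for each protein. For Su(Hw) alone the share was 45.2% in regions new at 3 h only and 36.5% in those new at both times. It was 24.7% and 27.4% for BEAF-32 alone, 20.4% and 33.3% for CP190 alone, and 35.6% and 20% (1 of 5) for dCTCF alone. For comparison, 0 h regions had another 0 h region within 1 kb in 25.7% of cases (24.9 to 26.4), at a median gap of 2623 bp. The new regions thus stood slightly closer to 0 h peaks than these stood to each other.

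The median gap was shorter for Su(Hw) and CP190 than for BEAF-32. Its median was 2189 bp for BEAF-32 alone, 1776 bp for Su(Hw) alone, 1779 bp for CP190 alone, 3442 bp for the 5 dCTCF regions and 1859.5 bp for regions of more than 1 protein. Measured from these single-protein regions to a 0 h peak of the same protein, the medians were 3985 bp for BEAF-32, 2325 bp for Su(Hw), 3990 bp for CP190 and 9218 bp for the 5 dCTCF regions. Within 1 kb of any 0 h peak lay 36.5% of the regions with Su(Hw) alone (30.1 to 43.5) and 27.4% of those with BEAF-32 alone (23.5 to 31.6), with intervals that overlap. Ranks were alike at all distances: the median of the lower of the 3 h and 48 h percentiles was 15.2 within 1 kb, 15.5 between 1 and 10 kb and 15.1 beyond 10 kb.

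For regions with Su(Hw), BEAF-32 or CP190 alone, the nearest 0 h peak was of the same protein at a higher share than that protein's part in the 0 h peaks. It was a Su(Hw) peak for 115 of the 197 regions with Su(Hw) alone (58.4%) and a BEAF-32 peak for 9 of them (4.57%). For regions with BEAF-32 alone it was a BEAF-32 peak in 180 of 464 (38.8%), a CP190 peak in 152 (32.8%) and a Su(Hw) peak in 98 (21.1%). For CP190 alone it was a CP190 peak in 19 of 39 (48.7%), and for dCTCF alone a dCTCF peak in 0 of 5. Su(Hw) supplied 36.4% of the 0 h arm peaks, CP190 26.2% and BEAF-32 19.2%. Over all 901 new regions the nearest 0 h peak was one of CP190 in 34.7%, Su(Hw) in 29.4%, BEAF-32 in 28.7% and dCTCF in 7.1%. The excess for CP190 alone is smaller on that scale and rests on 39 regions. Where 0 h peaks of several proteins overlap, the one whose edge lies nearest is counted, which favours broad CP190 peaks.

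**Figure D5:**
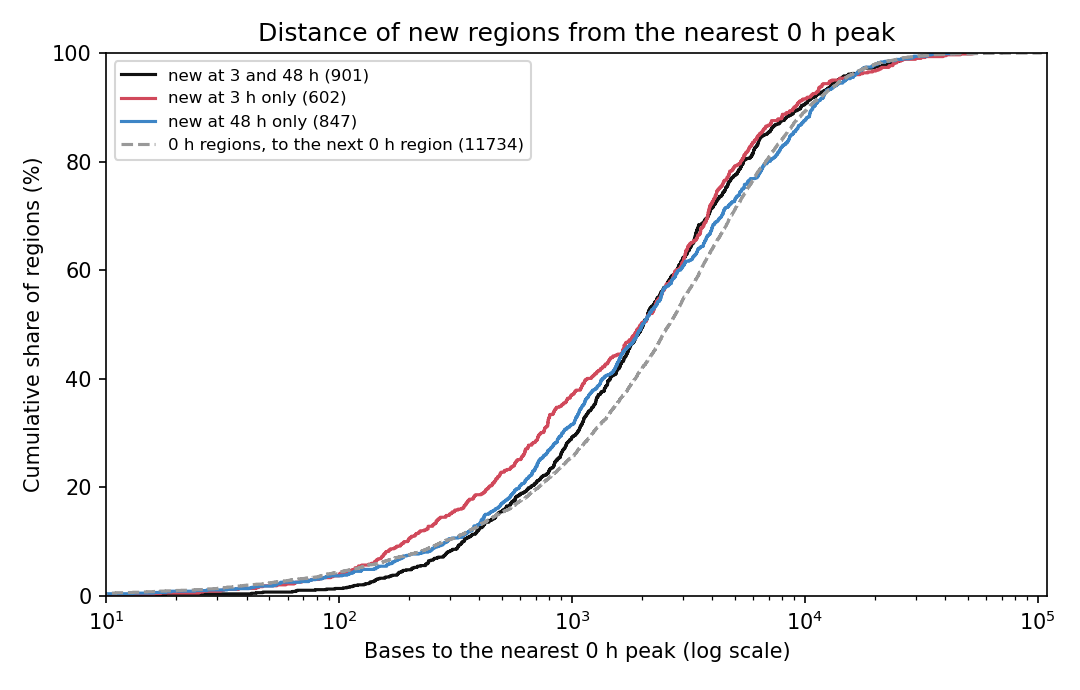
Cumulative share of regions (y axis, percent) by the number of bases to the nearest 0 h peak (x axis, log scale) for the 3 classes of new regions, and for 0 h regions to the next 0 h region. The median is 2021 bp for regions new at both times and 2623 bp between 0 h regions. The curve of regions new at 3 h only, with all proteins pooled, runs highest below 1 kb, where it holds 37.0%.

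The most isolated regions all lay in the lower 50% of their lists. 2L:15339017-15339978 lay 51917 bp from any 0 h peak and held Su(Hw) with scores of 130.56 and 324.88. The next 4 all held BEAF-32 alone. 3L:23485929-23486488, at 43534 bp, had 627.97 and 210.19, and 3L:23979988-23980589, at 39859 bp, had 376.3 and 181.52. 2L:22567835-22568519, at 39126 bp, had 374.78 and 513.5, and 2R:1072259-1072869, at 32257 bp, had 854.06 and 378.77. BEAF-32 ranked lower at 48 h in 3 of these 4.

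At the limit of the rule a few bases decided. The closest members were X:7897788-7898346 (Su(Hw), 130.81 and 157.8), 5 bp from a 0 h Su(Hw) peak at the ceiling, and 3R:1376964-1377558 (BEAF-32, 432.9 and 409.3), 6 bp from a 0 h BEAF-32 peak. 2L:2577354-2577961 (BEAF-32, 719.21 and 620.96) followed at 18 bp. Regions left out for the smallest overlap were 3L:10890917-10891628 (Su(Hw), 146.45 and 187.86), with 2 bp on a 0 h CP190 peak, and 2R:9849943-9850538 (BEAF-32, 490.37 and 426.89), with 3 bp on another. 3L:16150553-16151096 (Su(Hw), 106.34 and 135.06) shared 6 bp with a 0 h Su(Hw) peak. With a gap of at least 1 kb required, 638 regions met the rule.

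The spacing of the new regions was described without a comparison to an even spread. The median gap to the next new region was 32013 bp, and 219 of 901 (24.3%) had another within 10 kb. They fell in 681 of the 2361 windows of 50 kb that held a treated region. Of the 681, 510 held 1 new region, 133 held 2 and 29 held 3. A further 7 windows held 4 and 2 held 5. Whether the new regions were more bunched than an even spread would give was not tested.

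BEAF-32, which was at 71.0% of all new regions, was present in all the windows with 4 or 5 of them. In 1 of these windows, on 3L between 17950001 and 18000000, Su(Hw) was at 3 of 4 and BEAF-32 at 1. On X between 1950001 and 2000000, 5 of 10 treated regions were new, all with BEAF-32 and 1 with Su(Hw) as well, beside 5 regions at 0 h. X:1969617-1970293 had 2448.93 at 3 h and 891.59 at 48 h, and X:1977650-1978425 had 551.66 and 1581.59. On 2L, 3 adjoining windows from 10250001 to 10400000 held 13 new regions among 36 treated ones, where 20 regions were listed at 0 h. Of the 13, 12 held BEAF-32 at both times, 3 held CP190 at some time, and none held Su(Hw) or dCTCF. BEAF-32 scores there ran from 160.26 to 2846.54 at 3 h and from 102.66 to 2566.71 at 48 h. Of the windows with 4, the next by position, on 2L between 12050001 and 12100000, had 3 with BEAF-32 and 3 with CP190.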

How the data were processed

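The 12 ChIP-seq peak lists (81028 peaks), 1 per library, were used as deposited. Each gives a sequence name, start, end, peak name and score. Per the submitters' processing notes, Bowtie 0.12.5 was the aligner. Per the files themselves, peak names start as MACS writes them. The sources used here do not state the caller's settings or control, nor the genome build, whose sequence names match Release 5. The score is the authors' own deposited value per peak. Scores are printed as deposited, but what is said to rank higher or lower between lists rests on percentiles. The fixed limit of 200 may not mean the same in each list. The lists give no read counts, so depth is unknown. Starts were written counted from 1.

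Regions were built as the opening of the report states. A score percentile is the share of the other peaks of the whole list with a lower score, ties counted by 50%. A gap is the number of bases between region and peak. Windows of 50 kb were fixed along each arm and took regions by their centre. The rule for named regions took, by the lower of the 3 h and 48 h percentiles, the 5 leading regions of each protein alone, of 2 or 3 proteins and of different proteins at the times. In mixed regions the best protein at each time was used. It also took all regions of 4 proteins, the 5 farthest from 0 h peaks, the 5 fullest windows, and 3 on each side of the limit. Members and lists were chosen with earlier results of these data known. Gene positions and DNA motifs were not analysed here, since no annotation or genome of the build of the lists was used, and no sequence is printed. The code was tested on simulated regions. Python 3.11.15, numpy 2.4.6, scipy 1.17.1, statsmodels 0.14.6 and matplotlib 3.10.9 were used.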

Additional observations from a re-analysis of the deposited data

Results flagged for a closer look

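Between 3 and 48 h the number of new regions holding a protein moved in opposite directions, and with 1 library each the difference was not tested. For BEAF-32 it changed by 14, from 612 to 626. For CP190 it changed by -39 (120 to 81), for dCTCF by -28 (45 to 17) and for Su(Hw) by -9 (279 to 270). The arm peaks of the whole lists changed from 6254 to 5667 for CP190 and from 4085 to 3333 for dCTCF over the same interval. They changed from 8492 to 8329 for Su(Hw) and from 5882 to 5896 for BEAF-32, so each whole list moved in the same direction as the new regions. In proportion, the change was larger in the new regions for each protein, most clearly for CP190 and dCTCF.

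Sequences outside the main arms, which the rule leaves out, also held new regions: 106 of 2519 treated regions there (4.21%) had peaks at 3 and 48 h and none at 0 h. BEAF-32 was present at 71 of them, CP190 at 28, dCTCF at 13 and Su(Hw) at 2. Uextra held 49, 2RHet 19, 3LHet 15 and U 14.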

How the results depend on the processing

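Of 146 alternative values under 15 settings, 84 stayed within the spread or 1.5-fold limits and 62 moved; 2 settings were added after the data were seen. For comparison, the values reported were 901 new regions (6.69% of treated regions), 877 with a shared protein at both times, 464, 197, 39 and 5 with BEAF-32, Su(Hw), CP190 or dCTCF alone, 196 mixed, a median gap of 2021 bp and 19.6% on X. Requiring 1 kb from any 0 h peak gave 4.73%, 125 with Su(Hw) alone and a gap of 3260 bp. Treated scores of at least 200 gave 422 regions (3.57%), 418 with a shared protein, 35 with Su(Hw), 14 with CP190 and 2 with dCTCF alone, and 39 mixed. The top 50% of treated lists gave 15 (0.17%), 15 with a shared protein, 14 with BEAF-32, 0 with Su(Hw), 0 with CP190 and 1 with dCTCF alone, 0 mixed, and 2256 bp. With 0 h peaks counted only at a score of at least 200, there were 1774 (13.2%), 1735 with a shared protein, 488 with Su(Hw), 83 with CP190 and 17 with dCTCF alone, 567 mixed, and 2556.5 bp. Lists of equal length gave 363 (2.95%), 353 with a shared protein, 102 with BEAF-32 and 9 with dCTCF alone, and 56 mixed. All sequences gave 63 with CP190 and 12 with dCTCF alone. Leaving out a protein also removes its 0 h peaks: without CP190 the values were 9%, 809 with BEAF-32 and 11 with dCTCF alone, and 2320 bp, without Su(Hw) 10.9%, 163 with CP190 and 15 with dCTCF alone, and 3009 bp, and without dCTCF 7.31%. Without BEAF-32 there were 446 (3.71%), 423 with a shared protein, 121 with CP190 and 13 with dCTCF alone, 65 mixed, 2215 bp and 22.6% on X. The added settings were scores of at least 200 at all times (8.08%, 2 with dCTCF alone, 2418 bp) and omission of the 0 h BEAF-32 list, which gave 1827 (13.6%), 1801 with a shared protein, 1118 with BEAF-32 and 9 with dCTCF alone, 456 mixed, and 3207 bp. Beyond what each setting removes by construction, the cause was not tested. No paired analysis was possible because each protein and time had 1 library. Depth is unknown, so weak peaks absent from a list cannot be told from sites just under its lowest score.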
